A study of Mus musculus with 6 samples.

Results

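The loci described here are those of 8 receptors of the transforming growth factor beta (TGF-beta) superfamily, Tgfbr1, Tgfbr2, Tgfbr3, Acvr1, Acvr1b, Acvr2a, Acvr2b and Bmpr2, and of the ligand Mstn (myostatin). Each gene was represented by the 500 kb bin that holds its transcription start site (TSS) in mm10, which gave 9 different bins of the 4727 autosomal bins with data in all 3 conditions (5019 bins with chr X included). Tgfbr2 was chosen by its measured rise in compartment score from myoblasts to myotubes in these same matrices. The other 8 genes were added as partners in the same signalling pathway, with earlier results of these data known. The compartment scores and profile correlations of the 9 bins are therefore given as a description, and no test was made on them.

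Ligands of this superfamily bind a type II receptor kinase, which phosphorylates a type I receptor, and the activated type I receptor phosphorylates Smad transcription factors. Myostatin, which is made by skeletal muscle and limits muscle mass, signals mainly through the type II receptors Acvr2b and Acvr2a together with the type I receptors Acvr1b and Tgfbr1, whereas TGF-beta itself is bound by Tgfbr2. Both ligands are known to hold back the differentiation of myoblasts. In the nucleus, chromatin separates into an A compartment, rich in active genes, and a B compartment, rich in inactive genes.

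Chromosome contacts were measured by Hi-C in C2C12, an established line of mouse skeletal myoblasts that fuse into multinucleated myotubes in medium with little serum. The groups were proliferating myoblasts kept sub-confluent at low density (day 0), and, from cultures plated more densely, myotubes at day 3 of differentiation, and myotubes at day 7 that had received 10 µg/ml cytosine arabinoside (AraC) from day 3, each in 2 biological replicates. AraC kills dividing cells and was given to remove the unfused myoblasts that day 3 cultures still hold, so a change per nucleus and a change in the mix of cells cannot be told apart. There was no day 7 group without AraC, so the drug and the longer differentiation cannot be told apart either. All 3 groups are the same line at the same passage. The pair of replicates of a group had been pooled into a single matrix, so that no spread between replicates could be given for a bin. For whole matrices, the study reports correlations between replicates, and the lowest was that of the myoblasts. By that report, myoblast replicates correlated with each other only slightly more than with replicates of myotubes without AraC. Each change from myoblasts given below starts from the pooled myoblast matrix. How far the spread between replicates bears on single bins was not tested.

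Each value in a matrix is a correlation coefficient that says how alike the normalized contact profiles of a pair of bins were. The first principal component (PC1) of the coefficients within a chromosome gave the compartment score, with positive values in A and negative values in B. Over autosomal bins PC1 had an SD of 0.859 (myoblasts), 1.61 (myotubes) and 1.36 (AraC-treated myotubes), so the scaled PC1, which is PC1 divided by that SD, was used to compare conditions. PC1 held a median over autosomes of 39.4% of the variance at day 0 against 71.3% at day 3 and 63.4% at day 7 with AraC, and the number of read pairs behind a coefficient cannot be read from the matrices. A bin was called raised or lowered where its scaled PC1 differed by 0.5 or more between conditions. The profile correlation r of a bin is Pearson's r between its coefficients in a pair of conditions, taken over all remaining bins of the chromosome. Day 7 stands for the AraC-treated myotubes, 3 levels given together are for day 0, day 3 and day 7, and 3 values of r given together are for day 0 with day 3, day 0 with day 7 and day 3 with day 7.

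The contacts in these bins were read at the ends of HindIII fragments, and the fragment is the finest unit that the assay can place. The values given here are for whole bins of 500 kb and do not resolve fragments or genes. The study states that, at the resolution its read pairs allowed, changes could not be assigned to single genes. The TSS of Tgfbr2 lay in a HindIII fragment of 12.4 kb, that of Acvr2b in a fragment of 10.3 kb and that of Mstn in a fragment of 2.83 kb. Below, to show what was cut, are the first HindIII sites upstream of the TSS outside any annotated exon, on the strand of each gene, for the genes whose bins changed most or changed sign (GRCm38, the same assembly as mm10). The site, AAGCTT, is in capitals.
Tgfbr2 (chr9:116186046-116186105, minus strand): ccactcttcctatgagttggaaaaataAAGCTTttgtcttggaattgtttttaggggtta
Acvr2b (chr9:119397568-119397627, plus strand): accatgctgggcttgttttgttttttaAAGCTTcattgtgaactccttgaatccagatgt
Mstn (chr1:53061340-53061399, plus strand): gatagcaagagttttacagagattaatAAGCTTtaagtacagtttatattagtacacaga
Acvr2a (chr2:48809352-48809411, plus strand): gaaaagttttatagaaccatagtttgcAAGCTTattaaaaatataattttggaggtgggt
These sites were 10.7 kb, 4.52 kb, 0.268 kb and 4.72 kb upstream of the TSS, in that order. The Tgfbr2 bin held 136 HindIII sites and the Acvr2b bin 138, against a median of 163 over 4640 autosomal bins of complete sequence, and 10.5% and 11.9% of those bins had fewer. The Mstn bin held 181 sites and the Acvr2a bin 187. Whether the density of sites bears on the scores was not tested.

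The sequences before the starts of the pair of genes that were raised together on chr 9, and of Mstn, differ in base composition. They are shown from the RefSeq promoter table (GRCm38.p6, which matched 8 of the 9 genes), without any base that is annotated as exonic. Capitals mark the E-box motif CANNTG, which myogenic factors such as MyoD bind and which reads the same on both strands.
Tgfbr2 (chr9:116175364-116175613, minus strand): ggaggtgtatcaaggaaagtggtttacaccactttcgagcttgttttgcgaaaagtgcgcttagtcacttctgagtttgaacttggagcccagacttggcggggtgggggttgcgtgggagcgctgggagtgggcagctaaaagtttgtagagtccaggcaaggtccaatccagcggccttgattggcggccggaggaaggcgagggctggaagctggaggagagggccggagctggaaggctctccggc
Acvr2b (chr9:119401928-119402117, plus strand): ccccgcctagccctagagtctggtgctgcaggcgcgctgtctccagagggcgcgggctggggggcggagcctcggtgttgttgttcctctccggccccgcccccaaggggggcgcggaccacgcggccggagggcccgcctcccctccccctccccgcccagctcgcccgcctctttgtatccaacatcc
Mstn (chr1:53061390-53061639, plus strand): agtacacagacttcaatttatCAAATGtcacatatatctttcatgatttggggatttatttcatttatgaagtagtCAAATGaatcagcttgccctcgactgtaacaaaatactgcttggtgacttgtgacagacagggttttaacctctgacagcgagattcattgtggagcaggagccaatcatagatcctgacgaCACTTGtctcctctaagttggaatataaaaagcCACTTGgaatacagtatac
The Mstn sequence held 4 E-box matches and a TATAAA, and its GC content was 38.4% with 3 CpG dinucleotides. The Tgfbr2 and Acvr2b sequences held 0 E-box matches each and had a GC content of 58.4% and 74.7%, with 12 and 18 CpG dinucleotides. The Acvr2b sequence was 190 bases long without its exonic bases, and those of Tgfbr2 and Mstn were 250, so the counts are over unlike lengths. Of 32841 upstream windows of 250 bases in the table, 66.2% held at least 1 CANNTG and 7.59% held TATAAA. Exonic bases were not left out of those windows. A match is a run of letters, not a measured binding site.

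In myoblasts, 3 of the 9 bins lay in A, namely those of Bmpr2, Acvr1b and Acvr2b. In myotubes the Tgfbr2 bin had joined them, which made 4, and in AraC-treated myotubes the Mstn and Acvr2a bins lay just above 0 as well, which made 6. From myoblasts to myotubes 2 of the 9 bins were raised, those of Tgfbr2 and Acvr2b, where 3.64% of all autosomal bins were raised. From myoblasts to AraC-treated myotubes 3 were raised, with Acvr1b added, where 7.00% of all bins were. Tgfbr2 was chosen for its rise, and Acvr2b lies in the same unbroken stretch of raised bins on chr 9. These counts are therefore no measure of enrichment. Of the 7 remaining bins only Acvr1b was raised, and only to AraC-treated myotubes. No bin of the 9 was lowered in either comparison, where 2.54% and 5.42% of all bins were. The median change of the 9 bins was -0.0235 from myoblasts to myotubes and 0.0676 from myoblasts to AraC-treated myotubes, against -0.0117 and -0.0223 over all autosomal bins. The 7 bins other than Tgfbr2 and Acvr2b changed by -0.238 to 0.373 from myoblasts to myotubes, within the 5th to 95th percentiles of all bins (-0.399 to 0.426). In the comparisons with AraC-treated myotubes Acvr1b was above the 95th percentile, at 0.732 against 0.640 from day 0 and at 0.358 against 0.330 from day 3, and the other 6 were within the range. The comparisons from day 0 share the myoblast matrix, and the comparison from day 3 to day 7 shares a matrix with each of them. They are not independent, and are given side by side for that reason.

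**Figure D1:**
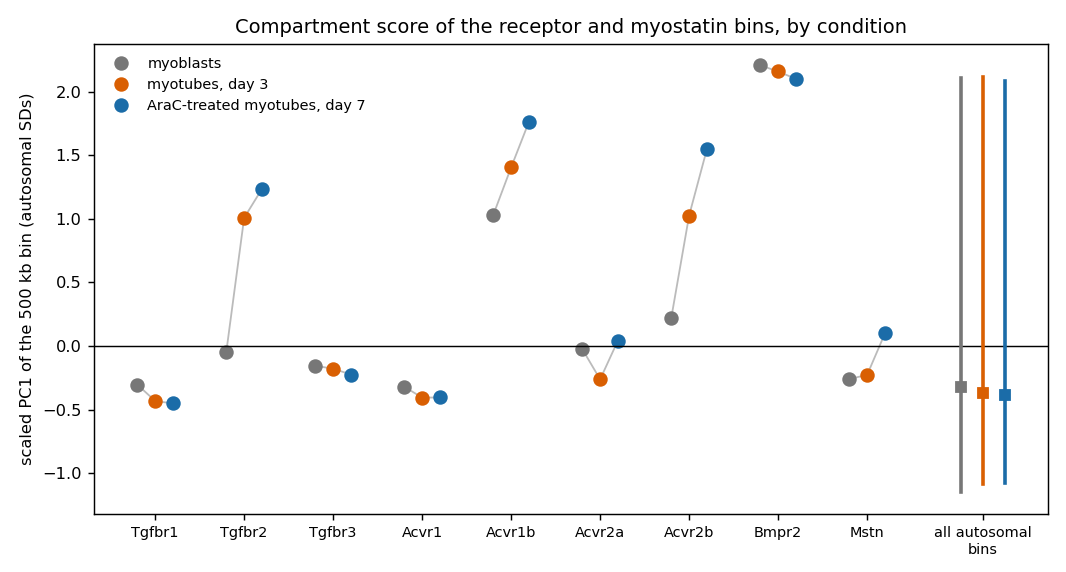
Scaled PC1 (in SDs over autosomal bins) of the 500 kb bin of each gene in the 3 conditions, 1 pooled matrix per condition. At the right, squares are the medians and bars the 5th to 95th percentiles of all 4727 autosomal bins. Tgfbr2 (-0.0437, 1.01, 1.24) and Acvr2b (0.223, 1.03, 1.55) moved up most, and Bmpr2 stayed above 2.1 throughout.

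Among the type II receptors, Tgfbr2, the receptor that binds TGF-beta, showed the change that led to its choice. The gene (ENSMUSG00000032440.13, chr9:116084293-116175360, minus strand) lies wholly in its bin and is the only protein-coding gene that starts there. The PC1 of the bin was -0.0376 at day 0, 1.62 at day 3 and 1.68 at day 7 with AraC. On the scaled measure these were -0.0437, 1.01 and 1.24, so the bin moved from the boundary between compartments to well within A, and most of the difference was already present at day 3. The scaled change from myoblasts to myotubes was 1.05, and 14 of the 4727 autosomal bins rose more. From myoblasts to AraC-treated myotubes it was 1.28, with 33 bins higher, and from myotubes to AraC-treated myotubes it was 0.228. The myoblast value was so close to 0 that its sign was not settled: with columns left uncentred it was 0.0216, and with partner bins within 2 Mb left out it was 0.0112. The size of the change to myotubes was 0.920 and 1.08 under these settings.

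The contact profile of the Tgfbr2 bin differed as well, although it was less extreme among all bins than the score. Its myoblast profile had an r of 0.207 with its myotube profile and of 0.258 with that of AraC-treated myotubes, the lowest of the 9 bins in both cases, and 6.01% and 11.4% of autosomal bins had a lower r. The r between the day 3 profile and the day 7 profile was 0.953. The profiles at day 3 and day 7 were therefore nearly the same, while the myoblast profile shared little with either. The myoblast profile was also flat, with an SD over the chromosome of 0.0221 against a median of 0.0408 over autosomal bins. At day 3 and day 7 the SD was 0.0967 and 0.109, against medians of 0.0797 and 0.0664. How far a flat profile lowers r was not tested. Over bins of other chromosomes only, which PC1 of chr 9 does not use, the r values were 0.137, 0.123 and 0.953. These coefficients rest on the same contact profile of the bin, so they are not independent of its score.

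The partners of Tgfbr2 show what the profile consisted of. On chr 9, 52 bins more than 2 Mb away had a scaled PC1 of at least 0.5 in all 3 conditions (constant A), and 82 had a scaled PC1 of -0.5 or less in all 3 (constant B). In myoblasts the mean coefficient of the Tgfbr2 bin was 0.00805 ± 0.0212 (SD over the 52 partners) with constant A and -0.000980 ± 0.0202 (SD over the 82 partners) with constant B, so the distributions overlapped. In myotubes the means were 0.166 ± 0.0410 and -0.0787 ± 0.0226, and in AraC-treated myotubes 0.187 ± 0.0571 and -0.0820 ± 0.0199. The bin thus had next to no preference in myoblasts and a clear one for A in both kinds of myotubes. Tgfbr2 was chosen by PC1, which is computed from these same coefficients, and the partners were sorted by PC1 as well. This difference therefore describes the choice of the bin and is not separate support for its change. With other chromosomes, over 986 constant A and 1549 constant B bins, the difference between the means was 0.00707 at day 0, 0.209 at day 3 and 0.209 at day 7. The share of autosomal bins with a smaller difference was 65.9%, 82.8% and 84.6%. Partner bins are not replicates, so these SDs describe the spread over the chromosome and no error between cultures.

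**Figure D2:**
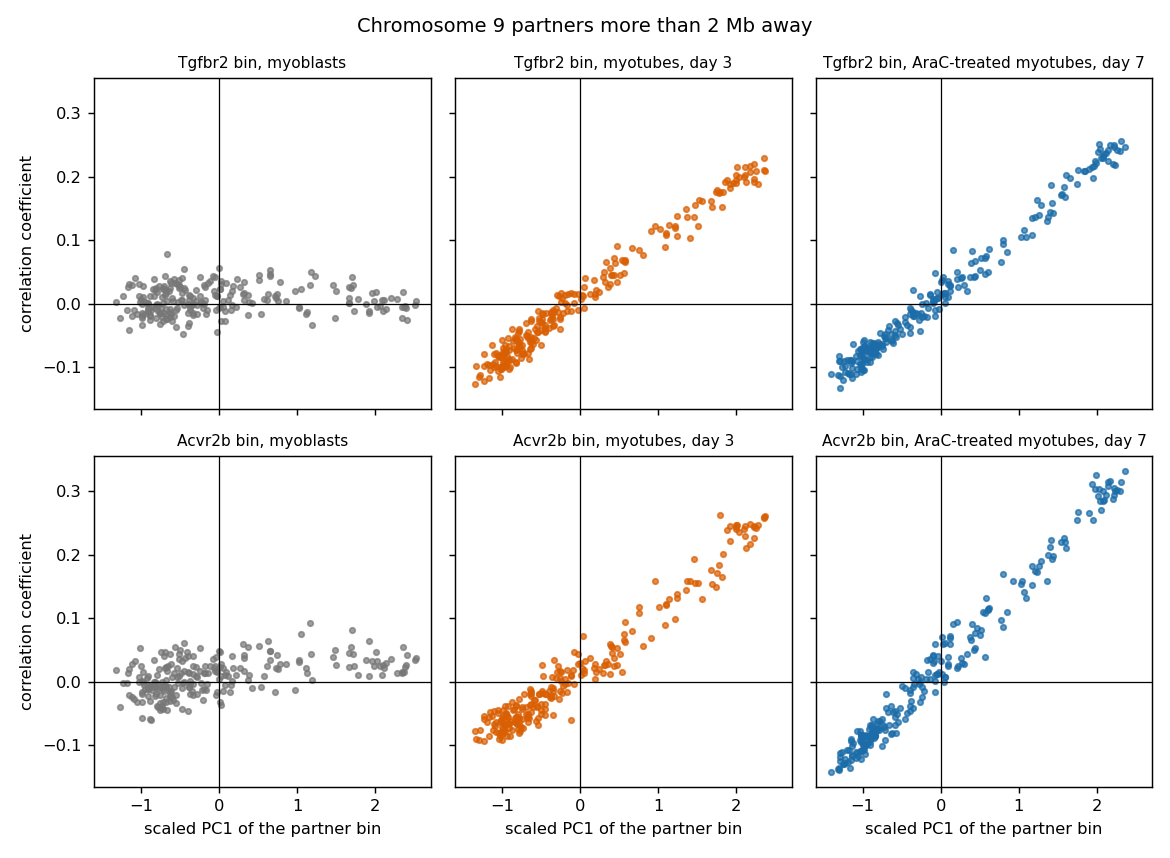
Deposited correlation coefficient of the Tgfbr2 bin (top) and the Acvr2b bin (bottom) with each of 234 bins of chr 9 more than 2 Mb away, against the scaled PC1 of that bin in the same condition. The points lie flat around 0 in myoblasts for Tgfbr2 and climb from negative to positive with the compartment of the partner in myotubes and AraC-treated myotubes.

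The change around Tgfbr2 was not limited to its bin. All 9 bins within 2 Mb of it were raised from myoblasts to myotubes, by 0.565 to 1.08, and from myoblasts to AraC-treated myotubes, by 1.12 to 1.58. Over the autosomes, 9 of 9 bins were raised in 7 of 4334 such windows (0.162%) and in 21 of 4334 (0.485%), and these windows overlap each other. The window here is centred on a bin chosen for its rise in these matrices, so the shares are a description and no measure of how unusual it is. Of these 9 bins, 0 lay in A at day 0, 6 at day 3 and 9 at day 7. The unbroken run of raised bins was chr9:113500001-120000000 from day 0 to day 3, 13 bins with 50 protein-coding gene starts, and chr9:110500001-120500000 from day 0 to day 7, 20 bins with 85. These runs held 5 of the 7 and 12 of the 21 windows. Within the run the Tgfbr2 bin had the highest score in its window in all 3 conditions, above the bins of Stt3b and Gadl1 on the one side and the bins without a gene start on the other. The bin of Eomes, a T-box transcription factor gene 2 Mb away, went from -0.706 to 0.0732 and 0.870.

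Acvr2b, the type II receptor with the strongest role in myostatin signalling, lies 3 Mb from Tgfbr2 and inside the same run (ENSMUSG00000061393.14, chr9:119402118-119434995, plus strand). Its bin holds 12 other protein-coding gene starts, among them Myd88, Oxsr1 and Plcd1. At day 0, day 3 and day 7, PC1 was 0.192, 1.65 and 2.10 and scaled PC1 was 0.223, 1.03 and 1.55. The bin was in A in each condition and moved deeper into it at each step, by 0.803 from myoblasts to myotubes (36 bins higher) and by 0.523 from myotubes to AraC-treated myotubes (83 bins higher). It was the only 1 of the 9 bins raised in the last comparison, in which 2.07% of all autosomal bins were raised and 0.148% were lowered. That call was lost with coefficients of other chromosomes (0.483) and with PC1 divided by the SD of its own chromosome (0.457). From myoblasts to AraC-treated myotubes the change of 1.33 was the largest of the 9, close to the 1.28 of Tgfbr2. Profile r was 0.614, 0.653 and 0.965, so that unlike at Tgfbr2 part of the myoblast profile was kept.

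The windows of both genes share bins, and they are not independent of each other. Within 2 Mb of Acvr2b, 6 of 9 bins were raised from myoblasts to myotubes and 7 from myoblasts to AraC-treated myotubes, and the 2 bins farthest from Tgfbr2, with scaled PC1 of 1.67 in myoblasts, changed by 0.188 and 0.288 to myotubes. The bin next to Acvr2b on the side of Tgfbr2, which holds Itga9, Ctdspl and Golga4, had the largest change to AraC-treated myotubes of the window, from -0.663 to 0.447 and 1.23. On the side away from Tgfbr2 the rise therefore ended in chromatin that was already strongly A. At its other end, the bin just before the run from day 0 to day 3 was in B. That bin had a scaled PC1 of -1.08 in myoblasts and changed by 0.452 to myotubes. On chr 9 as a whole, 7.82% of 243 bins were raised from myoblasts to myotubes and 11.1% from myoblasts to AraC-treated myotubes. The correlation of PC1 with position along chr 9, across its bins, was 0.103 at day 0, 0.277 at day 3 and 0.375 at day 7, and both genes lie toward the distal end. With a component computed from coefficients with other chromosomes instead, the changes of Tgfbr2 were 1.11 and 1.27 and those of Acvr2b 0.888 and 1.37.

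**Figure D3:**
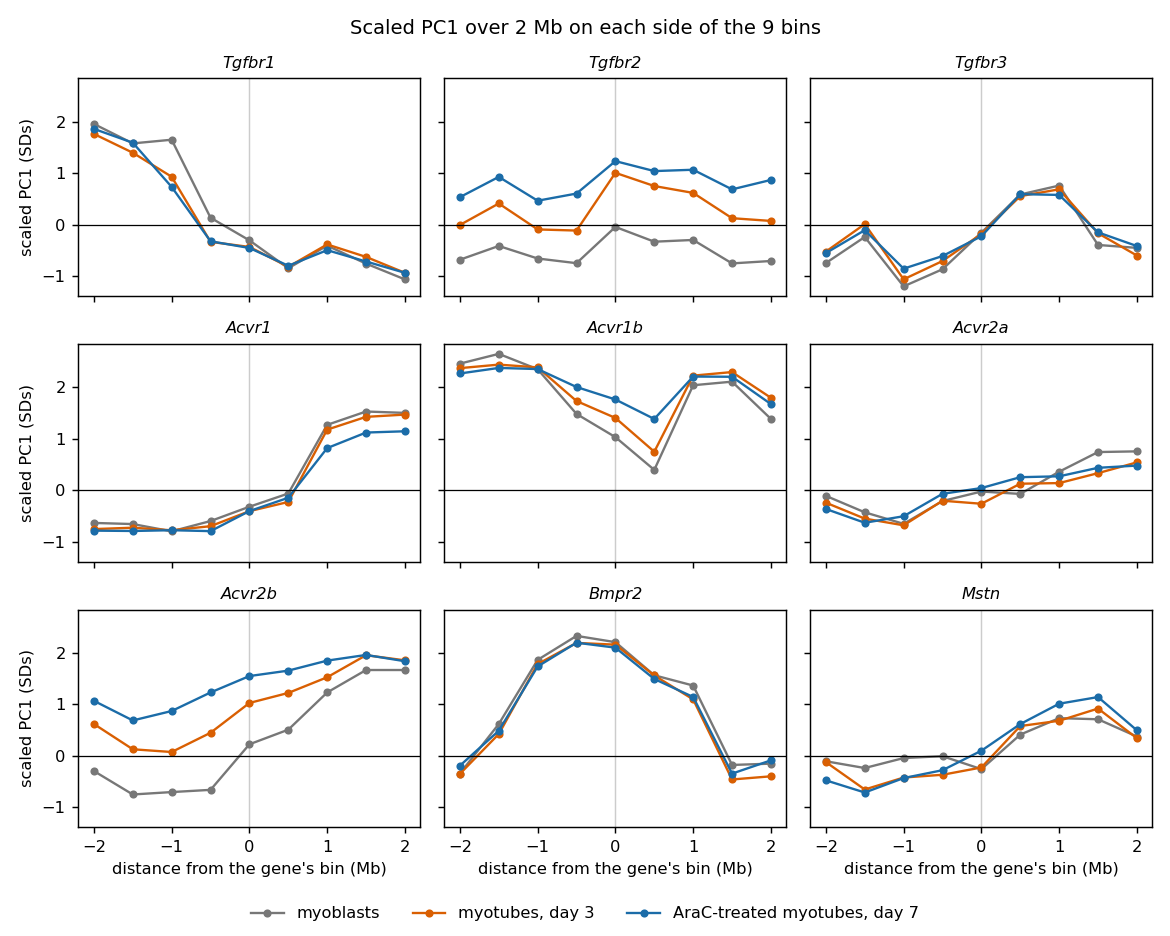
Scaled PC1 (SDs) of the 9 bins within 2 Mb of each gene, by distance from its bin in Mb, in the 3 conditions. The curves separate over the whole window at Tgfbr2, separate on the left of Acvr2b and join on its right, and nearly coincide at Tgfbr3 and Bmpr2. To the right of Acvr1 the day 7 curve lies lower, at 0.819 against 1.27 in myoblasts 1 Mb away.

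Acvr2a, the other activin and myostatin type II receptor, lay at a compartment boundary on chr 2 (ENSMUSG00000052155.5, chr2:48814109-48903269, plus strand), in a bin shared with Orc4 and Mbd5. Its scaled PC1 was -0.0252 at day 0, -0.263 at day 3 and 0.0424 at day 7. The changes of -0.238, 0.0676 and 0.305 were all under 0.5, and the sign in myoblasts and AraC-treated myotubes rested on values close to 0. With coefficients of other chromosomes the values were -0.216, -0.388 and -0.101, in B throughout. Its profile r of 0.567, 0.376 and 0.611 was among the lower values of the 9 bins, and its neighbours ran from B on the side of smaller coordinates to A on the other. The SD of its profile was 0.0206, 0.0451 and 0.0240, below the medians over autosomal bins of 0.0408, 0.0797 and 0.0664.

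Bmpr2, the type II receptor for bone morphogenetic proteins, was the most strongly A of the 9 in every condition (ENSMUSG00000067336.6, chr1:59763400-59879014, plus strand), in a bin that also holds the starts of Nop58 and Fam117b. Its scaled PC1 was 2.21, 2.16 and 2.10, above about 95% of autosomal bins in each condition (95.9%, 95.5% and 95.1%). Unscaled PC1 was 1.90, 3.48 and 2.85, a difference that followed the SD over all bins. Profile r was 0.958, 0.946 and 0.980, the highest of the 9 bins in the comparisons with myoblasts. The bin thus differed least in rank between the 3 conditions.

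Among the type I receptors, Acvr1b, which carries activin and myostatin signals, was in A and moved further into it (ENSMUSG00000000532.11, chr15:101174067-101213684, plus strand). Its bin holds 15 other protein-coding gene starts, including Acvrl1, a type I receptor of endothelial cells, the orphan nuclear receptor gene Nr4a1 and a group of keratin genes. Scaled PC1 was 1.03, 1.41 and 1.76, with changes of 0.373 from myoblasts to myotubes, 0.358 from myotubes to AraC-treated myotubes and 0.732 over both. The next bin, made up mostly of keratin genes, went from 0.395 to 0.749 and 1.39. The bins 1 Mb or more away stayed at 1.39 or higher in all conditions, so that the change filled a dip in a long A region. Profile r was 0.929, 0.901 and 0.980.

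Tgfbr1, the type I receptor of TGF-beta, and Acvr1, which carries bone morphogenetic protein and activin signals, were in B in all conditions. The scaled PC1 of Tgfbr1 (ENSMUSG00000007613.15, chr4:47353222-47414931, plus strand) was -0.305, -0.433 and -0.453. It shares its bin with Col15a1, Alg2, Sec61b, Galnt12 and Anks6. Its profile r was 0.803, 0.757 and 0.923. On one side of Tgfbr1, 1 Mb away, the bin of Foxe1, Xpa and Tmod1 was lowered from 1.65 to 0.932 and 0.734, the only lowered bin in the window. Tgfbr1 and Tgfbr2, which form the TGF-beta receptor complex, thus had scores that differed by 0.261 at day 0, with Tgfbr2 higher, and by 1.44 at day 3 and 1.69 at day 7.

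The TSS of Acvr1 (ENSMUSG00000026836.15, chr2:58388644-58567157, minus strand) and the middle of the gene fall in neighbouring bins. The bin of the TSS had a scaled PC1 of -0.321, -0.407 and -0.405, and the bin of the middle, which also holds the start of the related receptor gene Acvr1c, -0.599, -0.699 and -0.795. Both were in B throughout. At 1, 1.5 and 2 Mb to the right of the TSS bin the scaled change from day 0 to day 7 was -0.452, -0.409 and -0.357. Within 2 Mb of Acvr1, 0 of 9 bins changed the sign of PC1 in any comparison.

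Tgfbr3, or betaglycan, is a co-receptor that presents TGF-beta and inhibin to the type II receptors (ENSMUSG00000029287.14, chr5:107106570-107289629, minus strand). Its scaled PC1 was -0.156, -0.179 and -0.225, with changes of -0.0235, -0.0691 and -0.0457 that were the smallest or near the smallest of the 9 bins. Profile r was 0.656, 0.655 and 0.850. No bin within 2 Mb of Tgfbr3 was raised or lowered in any comparison.

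Mstn, the ligand, lay at an edge between B on the side of smaller coordinates and A on the other (ENSMUSG00000026100.6, chr1:53061640-53068079, plus strand), in a bin with 9 other protein-coding gene starts, among them Pms1, Ormdl1 and Osgepl1. Its scaled PC1 was -0.260 at day 0, -0.228 at day 3 and 0.0983 at day 7. The change from myoblasts to myotubes was 0.0320 and that from myotubes to AraC-treated myotubes 0.326, so the difference appeared between the myotube conditions and stayed under 0.5. Its myoblast profile had an r of 0.710 with the day 3 profile and of 0.401 with the day 7 profile, and the r of the last pair, day 3 with day 7, was 0.476. In that pair it was the lowest of the 9 bins, and 6 of the 9 had r above 0.9. The day 7 profile of Mstn was flat, with an SD of 0.0169 against a median of 0.0664 over autosomal bins. The edge itself sharpened: the bin 1.5 Mb to the left went from -0.238 to -0.656 and -0.714, and the bin 1.5 Mb to the right from 0.710 to 0.918 and 1.14.

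From day 0 to day 3 the sign of PC1 changed in 1 of the 9 bins (Tgfbr2), from day 0 to day 7 in 3 (Tgfbr2, Acvr2a and Mstn) and from day 3 to day 7 in 2 (Acvr2a and Mstn). The shares over all autosomal bins were 7.32%, 10.2% and 5.12%. Each of these changes started or ended within 0.1 of 0 on the scaled measure. Where only bins whose absolute PC1 exceeded the 20th percentile for the chromosome in both conditions were counted, 0 of the 9 changed sign. A profile r below 0 was found in 0 of the 9 bins in each comparison, against 3.28%, 5.80% and 1.16% of all bins, although 4 of 9 and 8 of 9 bins within 2 Mb of Tgfbr2 had r below 0 from myoblasts to myotubes and to AraC-treated myotubes.

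**Figure D4:**
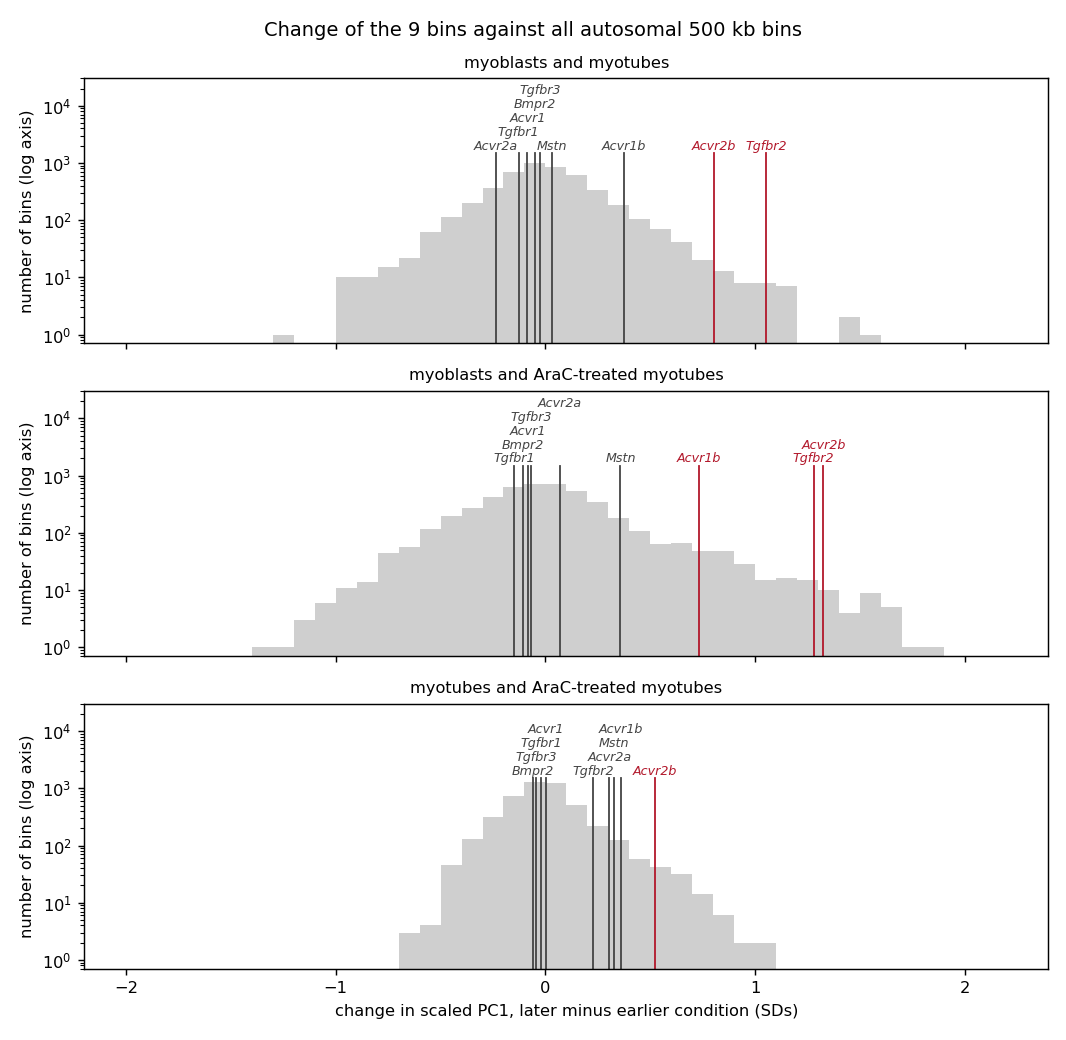
Change in scaled PC1 (SDs, later minus earlier condition) over the 4727 autosomal bins for each pair of conditions, as a histogram with a log count axis. Lines mark the 9 bins, in red where the change was 0.5 or more. Tgfbr2 and Acvr2b lie in the upper tail in the comparisons with myoblasts, at 1.05 and 0.803 and at 1.28 and 1.33.

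The coefficients between the 9 bins themselves had their highest mean among the bins deepest in A at day 7. Tgfbr2, Acvr1b, Acvr2b and Bmpr2, the 4 bins with a scaled PC1 above 1 in AraC-treated myotubes, formed 5 pairs on different chromosomes, and the mean coefficient over these pairs was 0.0515 at day 0, 0.172 at day 3 and 0.20 at day 7. Divided by the SD of all coefficients between chromosomes in each condition (0.0446, 0.0890 and 0.0732), these means were 1.15, 1.93 and 2.74. Between these 4 and Tgfbr1, Tgfbr3 and Acvr1, over 12 pairs, the mean was 0.00190, -0.0550 and -0.0556. Among Tgfbr1, Tgfbr3 and Acvr1, over 3 pairs, it was 0.0219, 0.0269 and 0.0175, or 0.490, 0.302 and 0.239 of the SD. Acvr2a and Mstn, with scaled PC1 of 0.0424 and 0.0983 in AraC-treated myotubes, were in neither group. Tgfbr2 also changed sign, and was grouped by its score in AraC-treated myotubes. The pair of highest coefficient was Acvr1b with Acvr2b, a type I and a type II receptor for myostatin, at 0.103, 0.216 and 0.264. Of all autosomal pairs on different chromosomes, 97.6%, 98.1% and 99.2% were lower, so its rank was high already at day 0. The other pairs of a type I with a type II receptor for myostatin had lower coefficients. Tgfbr1 with Acvr2b had -0.0156, -0.0199 and -0.0872, and Acvr1b with Acvr2a had -0.0280, -0.0743 and -0.0766. Tgfbr1 with Acvr2a had 0.0287, 0.0267 and 0.0255. Bmpr2 with Tgfbr2 went from 0.0011 to 0.137 and 0.152, above 44.2%, 96.2% and 97.5% of all autosomal pairs on different chromosomes. Since the bins were grouped by PC1, which is computed from the same matrices, this order describes the grouping. Over all 33 pairs on different chromosomes the mean was 0.0124, 0.00201 and 0.00734, against 0.00526, 0.00743 and 0.00306 over all autosomal pairs. The medians over the 33 pairs were 0.00561, -0.0199 and -0.0149, and without the Tgfbr2 bin the means were 0.0132, -0.00181 and 0.000711.

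**Figure D5:**
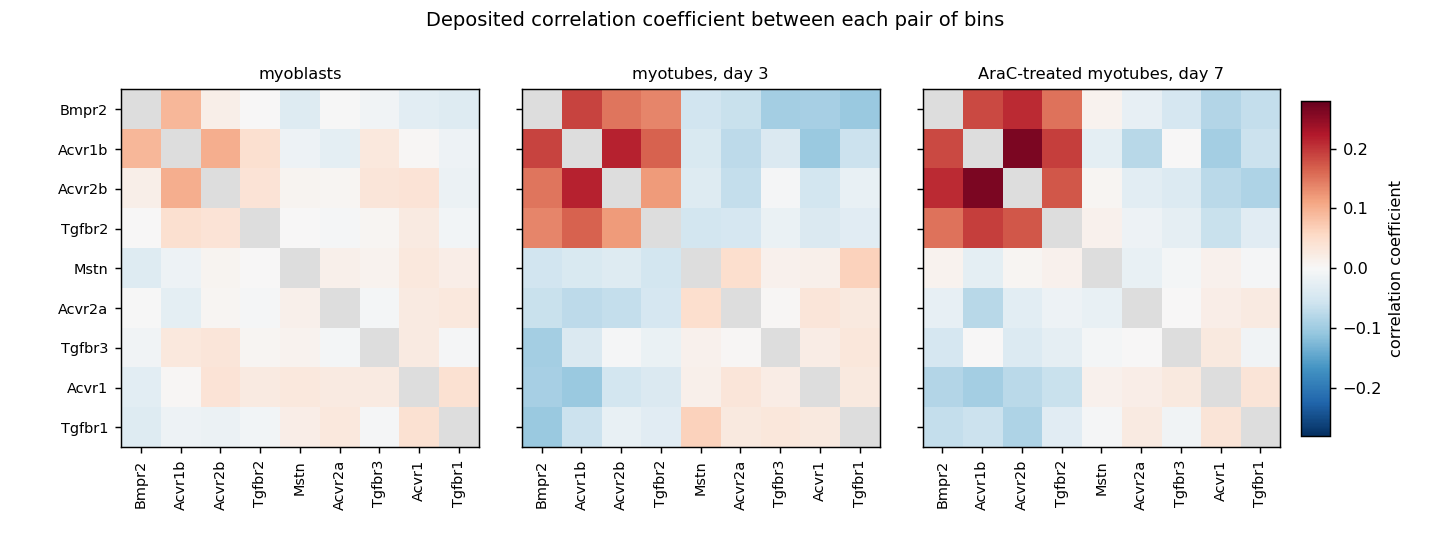
Deposited correlation coefficient between each pair of the 9 bins in the 3 conditions, with genes ordered by scaled PC1 in AraC-treated myotubes, on 1 colour scale from blue (negative) to red (positive). The block of Bmpr2, Acvr1b, Acvr2b and Tgfbr2 is pale in myoblasts and red in myotubes and AraC-treated myotubes, where Acvr1b with Acvr2b reached 0.216 and 0.264. The colours are not scaled by the SD of all coefficients between chromosomes, which was 0.0446 at day 0, 0.0890 at day 3 and 0.0732 at day 7.

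On the same chromosome, Tgfbr2 and Acvr2b had a coefficient of 0.0391 in myoblasts, near the median of 0.0336 for bins 3 Mb apart, and 0.118 and 0.174 at day 3 and day 7, where the medians were 0.0512 and 0.0463. The share of pairs at that distance with a lower coefficient was 55.1%, 81.9% and 93.5%. Mstn and Bmpr2, which lie 6.5 Mb apart on chr 1, in opposite compartments at day 0 and day 3 and both in A at day 7, had coefficients of -0.0353, -0.0526 and 0.00986. The medians at that distance were 0.0250, 0.0339 and 0.0297, and 12.7%, 20.0% and 39.5% of pairs were lower.

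Of the bins on other chromosomes, those nearest to Tgfbr2 in scaled PC1 over the 3 conditions, by Euclidean distance, were chr8:125500001-126000000 with Kcnk1, Pcnx2 and Sipa1l2 (distance 0.192) and chr11:107500001-108000000 with Helz and calcium channel gamma subunit genes (0.243). They were followed by chr11:108000001-108500000 with Prkca (0.268), chr2:180500001-181000000 with Col9a3 and Arfgap1 (0.301) and chr17:10000001-10500000 with Qk (0.302). Qk encodes the RNA-binding protein Quaking, a splicing regulator active in muscle, and Prkca encodes a protein kinase C. The likeness was measured over 3 pooled matrices and says nothing of shared control.

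In a list of 53 other genes of the pathway (14 ligands, 7 receptors or co-receptors, 8 Smads, 17 inhibitors or latency proteins and 7 targets), the bins of 4 genes were raised and of 2 lowered from myoblasts to myotubes, and of 5 and 4 from myoblasts to AraC-treated myotubes. These are 7.55% and 3.77%, and 9.43% and 7.55%, of the genes, against the 3.64% and 2.54%, and 7.00% and 5.42%, of all autosomal bins given above. The median change was -0.0299 and -0.0886. No gene of the list was raised or lowered from myotubes to AraC-treated myotubes. By a choice made after the values were seen, these are named here. Gdf11, Tdgf1, Smurf1 and Postn were raised and Eng and Ctgf lowered to myotubes, while Acvrl1, Tdgf1, Fst, Smurf1 and Postn were raised and Eng, Skil, Ctgf and Id3 lowered to AraC-treated myotubes. Acvrl1 shares the bin of Acvr1b, and Tdgf1 lies in the first bin of the longer run on chr 9.

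Of the 53 genes, 2, 5 and 3 lay in bins whose PC1 changed sign from day 0 to day 3, day 0 to day 7 and day 3 to day 7 (3.77%, 9.43% and 5.66%, against the 7.32%, 10.2% and 5.12% of all bins given above). These shares of sign changes were near or below those over all bins. A profile r below 0 was found for 1, 5 and 0 of the 53 genes, where 3.28%, 5.80% and 1.16% of all autosomal bins had one. Follistatin (Fst), a secreted protein that binds and blocks myostatin and activins, was the only gene of the list in a bin that went from B to A. Its scaled PC1 was -0.188 at day 0, 0.295 at day 3 and 0.446 at day 7, and its profile r was -0.0815 and -0.125 between myoblasts and the 2 later conditions and 0.713 between those. Smurf1, a ubiquitin ligase that targets receptors and Smads, went from 0.227 to 0.963 and 0.918 and stayed in A. Gdf11, the closest relative of myostatin, went from 0.866 to 1.53 and 1.17.

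The other bins of the list that changed sign went from A to B. Tgfb1, the founding ligand, went from 0.0228 to -0.232 and -0.247, with r of 0.546 and 0.532 against myoblasts. The bin of Smad1, which carries bone morphogenetic protein signals, went from 0.256 to 0.0770 and -0.131, with an r of -0.0751 between myoblasts and AraC-treated myotubes. Ltbp1 and Ltbp4, which anchor latent TGF-beta in the matrix, lay at 0.243, 0.309 and -0.0329 and at 0.162, 0.285 and -0.0153. Inhba, a subunit of activin and inhibin, stayed in A at 0.487, 0.417 and 0.119 but had r of -0.0329 between myoblasts and AraC-treated myotubes, Fstl1 (0.526, 0.366 and 0.106) had -0.180, and Bmp6 (0.215, 0.0792 and 0.0448) had -0.00957. The Smads that carry TGF-beta and myostatin signals, Smad2 and Smad3, were in A in every condition, with scaled PC1 of 0.648, 0.811 and 0.730 and of 2.34, 2.23 and 2.24.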

How the data were processed

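Hi-C libraries of C2C12 cells, cut with HindIII, were mapped with bowtie and filtered in HiCUP v0.5.3, and the read pairs of both replicates of a condition were pooled and normalized in HOMER, by the study's methods and the submitters' processing notes. The matrix that the authors deposited for a condition holds a score, the correlation coefficient between the normalized profiles of 2 bins of 500 kb. Columns of unmapped samples numbered 0. Depth per bin pair cannot be recovered from the coefficients.

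PC1 was computed per chromosome with NumPy 2.4.6 under Python 3.11.15, from the coefficients within the chromosome after the column means, not the column SDs, were removed, and was signed by the number of protein-coding TSSs per bin in GENCODE vM21. SciPy 1.17.1 and Matplotlib 3.10.9 were also used. Bins with data in all 3 conditions on chr 1 to 19 were the background. The steps were tested on simulated matrices. With 1 pooled matrix per condition no test between conditions was possible, and no p-value is given.

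The 9 genes, the pathway list, the threshold of 0.5 and the alternatives were chosen with earlier results of these data known. Named genes were the 9, genes sharing their bins, pathway genes whose bin changed sign or had r below 0 in any pair, and genes of the 5 bins nearest to Tgfbr2. Smad2, Smad3, the genes of neighbouring bins and the pathway genes named only because their bins were raised or lowered by 0.5 or more were outside that rule and were chosen after their values were seen. Alternatives were an uncentred component, coefficients with other chromosomes, odd or even partners, partners within 2 Mb left out, other scalings, neighbouring bins, the middle of the gene and rank correlation. RNA-seq was not analysed here.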

Additional observations from a re-analysis of the deposited data

How the results depend on the processing

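No paired analysis was possible because the replicates of each condition had been pooled into 1 matrix before deposit. The number of the 9 bins with PC1 of opposite sign, which was 1 from day 0 to day 3, 3 from day 0 to day 7 and 2 from day 3 to day 7, became 0 in each comparison with columns not centred and 0 in each where low absolute PC1 values were left out. It became 2, 3 and 1 for the bins before those of the genes and 2, 2 and 0 for the bins after them. With partner bins within 2 Mb left out the counts were 1, 1 and 2, and the 1 from day 0 to day 3 was then Acvr2a in place of Tgfbr2. With coefficients of other chromosomes the last count was 1. The number with profile r below 0, 0 in each comparison, became 1, 2 and 1 for the bins before and 1 and 1 for the bins after in the comparisons with myoblasts. The scaled change of Tgfbr2 to myotubes was between 0.920 and 1.11 under the other components. Of the 153 alternative values over all results, 108 moved little and 45 moved. The depth behind a coefficient was not known.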
